A study of Rattus norvegicus with 24 samples.

Results

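MicroRNAs (miRNAs) of peripheral blood mononuclear cells (PBMC) were compared between arthritic rats given mechanical stimulation (MS) and arthritic rats given placebo (PLA), 1 hour after therapy. The comparison takes 4 of the 24 one-colour Agilent rat miRNA arrays of the series, 2 MS arrays and 2 PLA arrays, chosen by their sample titles and hybridised on 1 slide. It covers the 210 of 677 miRNAs on the array that were detected on 3 or more of the 24 arrays. Each of the 4 arrays is shown because the MS replicates were further apart than those of any other group.

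All 4 animals were female Wistar rats with collagen-induced arthritis (CIA), a model in which bovine type II collagen in adjuvant provokes joint inflammation, and therapy began at disease onset. MS, named AP in the labels, was a thin needle inserted under the skin on both sides of the lumbar spine and below the knee and twirled at the start of the session. PLA was an injection of saline into the peritoneum, the placebo of the methotrexate (MTX) arm, so that it was not a sham needle at the same points. Blood was drawn under deep anaesthesia from animals killed at sampling, so the arrays at 1 hour and at 34 days come from different animals. The MTX arm and the healthy animals (NOCIA, NORA in the labels) at 1 hour lie on the same slide, with 2 arrays each. Nothing in the labels ties MS replicate 1 to PLA replicate 1 beyond the number. The arrays were therefore not paired. P-values rest on an estimate of the spread shared over the 12 groups of the series, with 2 samples per group. It is not the spread of MS and PLA alone, and MS at 1 hour had the widest replicate difference.

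miRNAs are short RNAs cut from hairpin precursors. One strand of the duplex, the guide, is mostly loaded into Argonaute and pairs through its seed with target messages, while the other, the passenger strand (marked * here), is mostly degraded. In blood, miR-150, miR-342 and the miR-181 family are abundant in lymphocytes, miR-223 in myeloid cells, miR-142 in all white cells, miR-451 and miR-144 in red cells and reticulocytes, and miR-126 in platelets and endothelium.

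The sequences of the miRNAs on which the comparison turns follow, 5′ to 3′, as mature entries of RefSeq on build GRCr8, with the seed (bases 2 to 8) in capitals. Names are those of the array, and 173 of the 210 (82.4%) were matched to a RefSeq entry. Names without an arm were matched by hand, with no probe sequence to check the arm. The first set is the miRNAs below PLA on both MS arrays that passed a threshold given below, of which miR-99a has no matched entry.
miR-3544: aACUCCUGcaugacgccguuccc
let-7b*: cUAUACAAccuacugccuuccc
miR-298: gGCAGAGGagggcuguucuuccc
miR-664: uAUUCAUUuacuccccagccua
miR-1*: gCACAUACuucuuuauguaccc
miR-125b-5p: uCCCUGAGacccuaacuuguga
miR-125a-3p: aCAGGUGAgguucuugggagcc
The next is the miRNA with the largest positive difference among those detected on all 4 arrays.
miR-483*: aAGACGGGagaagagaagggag
The third set is miRNAs among the 8 largest negative differences without overlap that were low on MS replicate 1 alone.
miR-1224: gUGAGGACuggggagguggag
miR-188: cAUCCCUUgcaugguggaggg
miR-211*: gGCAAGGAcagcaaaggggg
The last set is miRNAs on which the MS replicates were far apart, and miR-451 of red cells.
miR-1949: uAUACCAGgaugucagcauaguu
miR-327: cCUUGAGGggcaugagggu
miR-338: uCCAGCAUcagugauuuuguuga
miR-497: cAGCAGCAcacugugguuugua
miR-16: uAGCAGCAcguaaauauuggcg
miR-451: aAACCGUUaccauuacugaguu
No seed was shared among the first 8 of these, so the lower miRNAs are not a seed family. miR-125b-5p shared its seed with miR-125a-5p, which overlapped between MS and PLA. miR-497 and miR-16 share the seed AGCAGCA with miR-15b, miR-195 and miR-322.

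Levels are log2 of the total intensity that the scanner software gives each miRNA, after each array was multiplied by 1 factor that brings its 75th percentile, over the 132 miRNAs detected on all 24 arrays, to a common value. Values under a floor of 5.76 (2.53 on the log2 scale) were set to it. MS replicate 1 was brighter than the other 3 arrays before scaling, with a summed intensity of 371061 against 186549 for MS replicate 2 and 207196 and 224351 for PLA. Its scale factor was 0.452, against 1.06, 1.02 and 0.889. After scaling, its dimmest detected intensity was 2.11, against 6.72 on MS replicate 2 and 4.90 and 4.96 in PLA. The floor thus also replaced detected values, most of all on MS replicate 1. MS replicate 1 detected 207 miRNAs, MS replicate 2 detected 167, and the PLA arrays 197 and 203. Outlier spots made up 9.59% of PLA replicate 2 and 4.65% to 4.84% of the other 3 arrays.

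At 1 hour, 2 dim miRNAs, miR-3544 and the let-7b passenger strand let-7b*, were lower in MS than in PLA and no miRNA was higher, at an adjusted p under 0.05 (limma, two-sided, Benjamini-Hochberg over the 210 miRNAs). This was 0.952% of the miRNAs tested. Without adjustment, 20 miRNAs had a p under 0.05, 18 of them lower in MS, where 10.5 are expected with no difference. The study's threshold (fold over 2, unadjusted p under 0.05, detected on all 4 arrays) was passed by 8 miRNAs, 3.81% of those tested, 7 of them lower. The MS arrays lay outside the range of the PLA arrays in 51 miRNAs, 24.3% of the 210, with 45 lower (21.4%) and 6 higher (2.86%). With 2 arrays against 2, an exact permutation test of a single miRNA cannot go below p = 0.333, so only limma's test is given. Without ties, 0.333 is also the probability that 2 arms with no difference do not overlap. The 24.3% without overlap was below it.

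**Figure D1:**
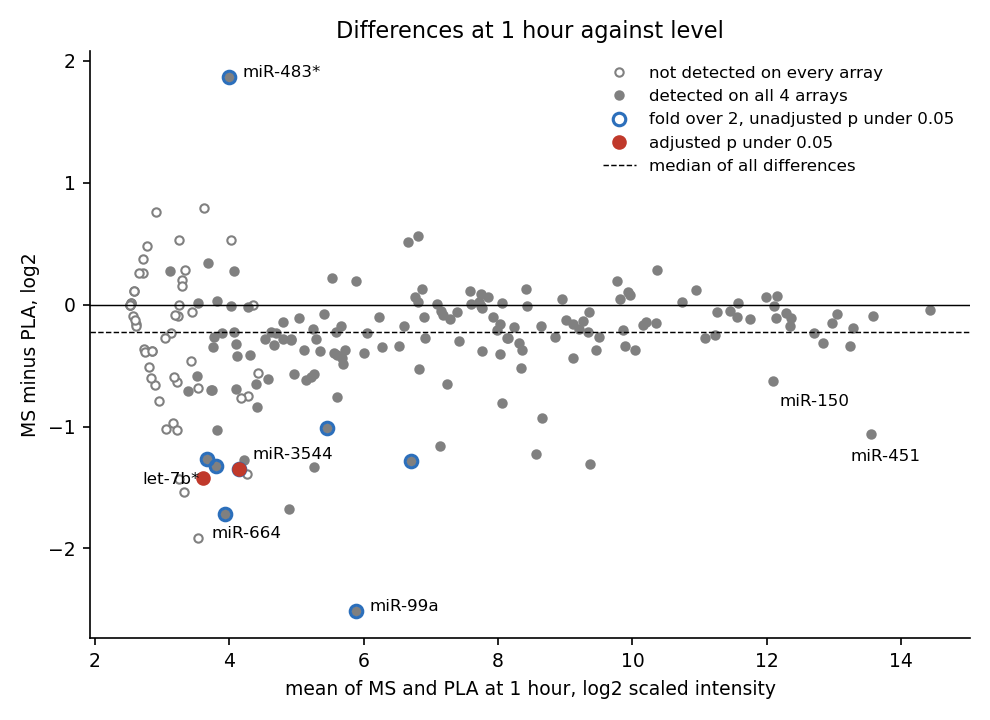
MS minus PLA at 1 hour (vertical axis, log2) against the mean level of both groups (horizontal axis, log2 scaled intensity) for the 210 miRNAs tested; open points were not detected on every one of the 4 arrays. The 2 red points (adjusted p under 0.05) and most of the 8 blue rings (study's threshold) lie among the dim miRNAs, and the dashed line marks the median difference of -0.22.

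The share of lower miRNAs depended on the scaling. The median difference over the 210 miRNAs was -0.22, with 160 negative and 47 positive (76.2% negative). It was 0.23 with no scaling (29.5% negative), 0.54 with the 75th percentile taken over all miRNAs (14.8%), 0.04 after quantile normalisation (40.5%) and -0.03 when the median replaced the 75th percentile (54.3%). Differences below are on the first scale, and a value of -0.22 is the middle of all miRNAs. Of the 157 miRNAs detected on all 4 arrays, 3 had both MS arrays below both PLA arrays under each of these 5 scalings (miR-3544, miR-664 and miR-99a) and 1 had them above (miR-483*). These 4 were picked out after their values were seen.

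miR-3544 had levels of 3.20 and 3.74 on the MS arrays and 4.86 and 4.78 on the PLA arrays. Both MS arrays were below both PLA arrays, and also below the MTX arrays (4.75 and 4.96) and the NOCIA arrays (4.77 and 4.77). The means were 3.47 ± 0.39 in MS and 4.82 ± 0.06 in PLA (SD, n = 2 each), a difference of -1.35 ± 0.23 (SE), a fold of 0.393 and an adjusted p of 0.00782 by limma. Before scaling, the total intensities were 20.3 and 12.7 in MS and 28.4 and 30.9 in PLA, where those of miR-21, the brightest miRNA here, ran from 22300 to 35600. miR-3544 was detected on all 8 arrays of the 1 hour slide and on 1 of the other 16, and its value was at the floor on 10 arrays, which enter the shared estimate of the spread. Both arrays of the isoflurane control arm at 1 hour lie on another slide, where no array detected it. Its detection thus did not follow the time alone, and slide, arm and anaesthetic cannot be told apart here. Fitted to the 8 arrays of the slide alone, its adjusted p was 0.177.

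The mature miR-3544 lies at chr6:134321165-134321187 on the minus strand (GRCr8), within no gene span of the RefSeq table. miR-370, a member of the imprinted Dlk1-Dio3 cluster, lies 33.4 kb away. Among the 173 tested miRNAs matched to RefSeq, miR-370 was the only other within 100 kb. It was detected on both PLA arrays, at 3.61 and 4.58, and on neither MS array. The PLA mean was at least 2.75-fold above the bound for MS, with an adjusted p of 0.224 in the limma fit, where the measured means were 4.10 and 2.56. It was also detected on both MTX arrays (3.80 and 3.95) and on neither NOCIA array.

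let-7b* had levels of 3.27 and 2.53 in MS, the second not detected, and 4.70 and 3.95 in PLA. The means were 2.90 ± 0.52 in MS and 4.32 ± 0.53 in PLA (SD, n = 2 each). The difference was -1.42 ± 0.28 (SE, adjusted p = 0.0162, limma), where the SE comes from the spread shared over the 12 groups. The MTX arrays (4.24 and 5.02) and NOCIA arrays (4.47 and 4.38) were also above both MS arrays. let-7b* was detected on 11 of the 24 arrays, 7 of them on the 1 hour slide. It stood at the floor on 13, which enter the shared estimate of the spread, among them the MS and PLA arrays at 34 days. Its unscaled intensities, 21.3 and 4.09 in MS against 25.5 and 17.3 in PLA, overlapped, with MS replicate 1 between the PLA arrays. Its sequence lies at chr7:118684098-118684119 on the plus strand, in the same hairpin as the guide let-7b and 0.4 kb from let-7c. Those guides, which are among the abundant miRNAs of the blood, were far brighter. let-7b had 10.88 and 11.01 in MS and 11.19 and 11.24 in PLA, a difference of -0.27 ± 0.15 (adjusted p = 0.688, limma), and let-7c had a difference of -0.25 ± 0.13. The difference for let-7b thus sat close to the median of all miRNAs.

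**Figure D2:**
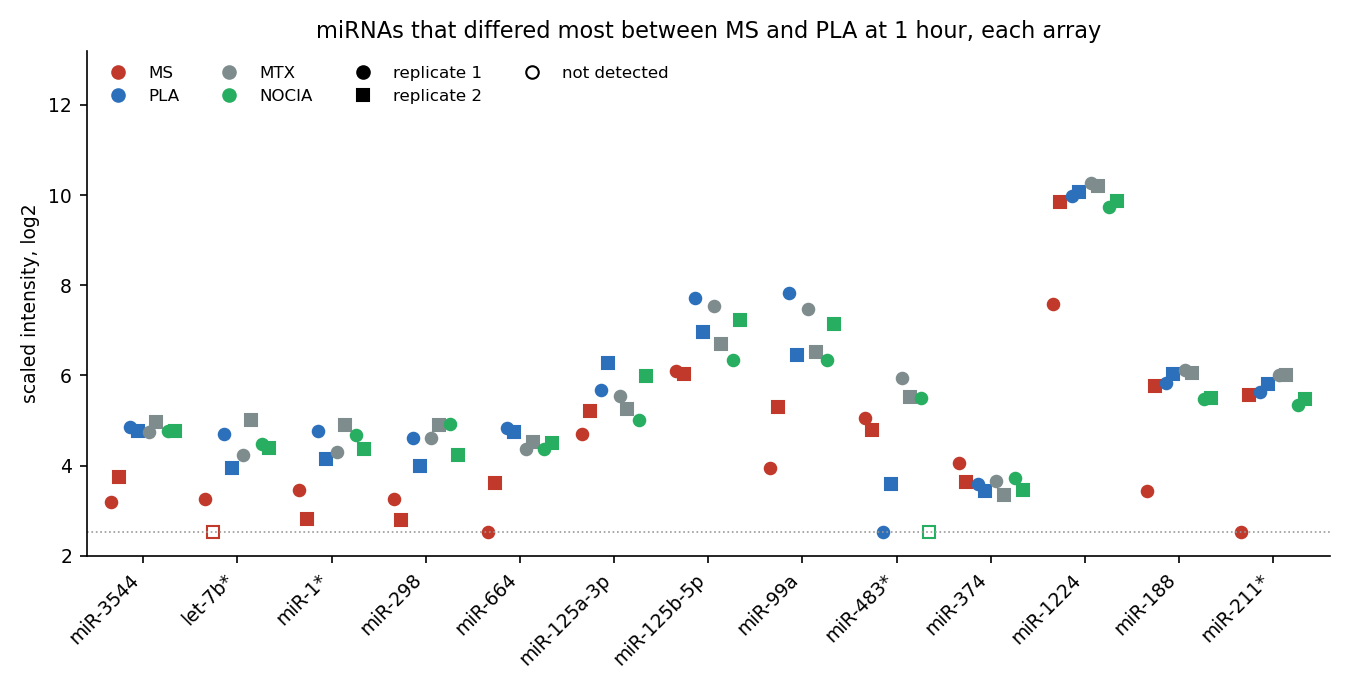
Level of 13 miRNAs (log2 scaled intensity, vertical axis) on each array of the 1 hour slide, circles for replicate 1 and squares for replicate 2, open where not detected; the dotted line is the floor. Both MS arrays (red) lie below the PLA, MTX and NOCIA arrays for miR-3544 and let-7b*, and only MS replicate 1 stands far from the rest for miR-1224, miR-188 and miR-211*.

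The other 6 lower miRNAs past the study's threshold did not pass the adjusted test (limma, adjusted p from 0.184 to 0.507). miR-99a, of the family that shares clusters with let-7 and miR-125, had the largest difference, with 3.96 and 5.29 in MS against 7.82 and 6.46 in PLA. This was -2.51 ± 0.85 (adjusted p = 0.245), and the MTX (7.46 and 6.53) and NOCIA arrays (6.33 and 7.15) were also above both MS arrays. miR-125b-5p, whose seed is that of the worm lin-4, had 6.10 and 6.03 in MS, 7.72 and 6.97 in PLA, 7.54 and 6.70 in MTX and 6.34 and 7.24 in NOCIA. Here the MS arrays were close together and were the lowest of the 8. The other strand, miR-125b-3p, differed by -1.03 ± 0.62, with 3.87 and 2.75 in MS and 3.97 and 4.71 in PLA, and the MTX and NOCIA arrays ran from 2.53 to 3.91.

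miR-664 was at the floor on MS replicate 1 and at 3.62 on MS replicate 2, against 4.83 and 4.75 in PLA. Its unscaled intensities were 9.24 and 11.7 in MS against 27.9 and 30.3 in PLA, so that the MS arrays were lower before any scaling. The difference was -1.72 ± 0.50. miR-298 had 3.27 and 2.81 in MS, 4.61 and 3.99 in PLA (adjusted p = 0.184), and miR-1*, the passenger strand of the muscle miRNA miR-1, had 3.46 and 2.82 against 4.77 and 4.16. Unscaled, both miR-298 (21.3 and 6.62 against 24.0 and 17.9) and miR-1* (24.4 and 6.71 against 26.6 and 20.1) overlapped between the groups, with MS replicate 1 between the PLA arrays. miR-125a-3p had 4.69 and 5.22 in MS and 5.67 and 6.27 in PLA, and 1 NOCIA array (5.02) lay within the MS range.

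miR-483*, read from within the span of Igf2, was higher in MS, at 5.05 and 4.79 against 2.53 and 3.59 in PLA. The difference was 1.87 ± 0.81 (adjusted p = 0.468, limma), and 1 PLA array was at the floor. The MTX arrays (5.95 and 5.51) and 1 NOCIA array (5.49) were above both MS arrays, while the other NOCIA array did not detect it. The PLA arrays and that NOCIA array, and not MS, were thus the low ones on the slide. The only other miRNA detected on all 4 arrays with both MS arrays above PLA was miR-374, which lies within the spans of the long noncoding RNAs Ftx and Jpx. It had 4.06 and 3.65 in MS against 3.59 and 3.44 in PLA, a difference of 0.34 ± 0.23, and 1 of the NOCIA arrays (3.72) lay above MS replicate 2.

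Both arrays of 1 arm and neither of the other detected 4 miRNAs, each of them in PLA. They were miR-370, the liver miRNA miR-122, miR-30b-3p and miR-874. miR-122 had 3.69 and 4.26 in PLA, at least 2.53-fold above the bound for MS (adjusted p = 0.688, limma), but only 1 of the 4 MTX and NOCIA arrays detected it. miR-30b-3p was at the floor on all 4 arrays, and miR-874 was above it on PLA replicate 2 alone (2.77). A further 10 miRNAs were detected on 1 array of an arm and on neither of the other, 7 of them in MS and 3 in PLA. Between the 2 MS arrays, replicate 1 alone detected 36 of the tested miRNAs and replicate 2 alone 6. Between the PLA arrays these counts were 14 and 10.

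Some of the largest negative differences rested on MS replicate 1. miR-1224, a miRNA made from a short intron of Vwa5b2, had 7.58 on MS replicate 1, 9.85 on MS replicate 2 and 9.97 and 10.06 in PLA. miR-188, within the span of Clcn5, had 3.44 and 5.76 in MS against 5.84 and 6.03. miR-211*, within that of Trpm1, was at the floor, though detected (9.68 unscaled), and at 5.58 in MS and at 5.64 and 5.82 in PLA. Their differences of -1.30, -1.33 and -1.67 had SEs of 0.70, 0.77 and 1.12. MS replicate 2 lay just under the PLA arrays for each of them, and MS replicate 1 was the lowest array of the slide.

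The MS replicates were apart in both directions over the whole array. Over the 132 miRNAs detected everywhere, the median absolute difference between the 2 MS replicates was 0.60, against 0.40 in PLA, 0.28 in MTX and 0.21 in NOCIA at 1 hour. Pearson's r across miRNAs, which are not independent replicates, was 0.930 between the MS replicates, the lowest of the 12 groups of the series. MS replicate 1 was closer to PLA replicate 2 (r = 0.977, median absolute difference 0.31) than to MS replicate 2. MS replicate 2 was closer to PLA replicate 1 (r = 0.987, 0.15) and to MTX replicate 2 (r = 0.994, 0.13) than to MS replicate 1. Of the 157 miRNAs detected on all 4 arrays, the 2 MS arrays lay on opposite sides of the PLA mean in 94 (MS replicate 1 the higher in 43 and the lower in 51), both below it in 56 and both above it in 7. MS replicate 1 was more than 1 below the PLA mean in 35 miRNAs and more than 1 above in 2, and MS replicate 2 in 12 and 6.

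**Figure D3:**
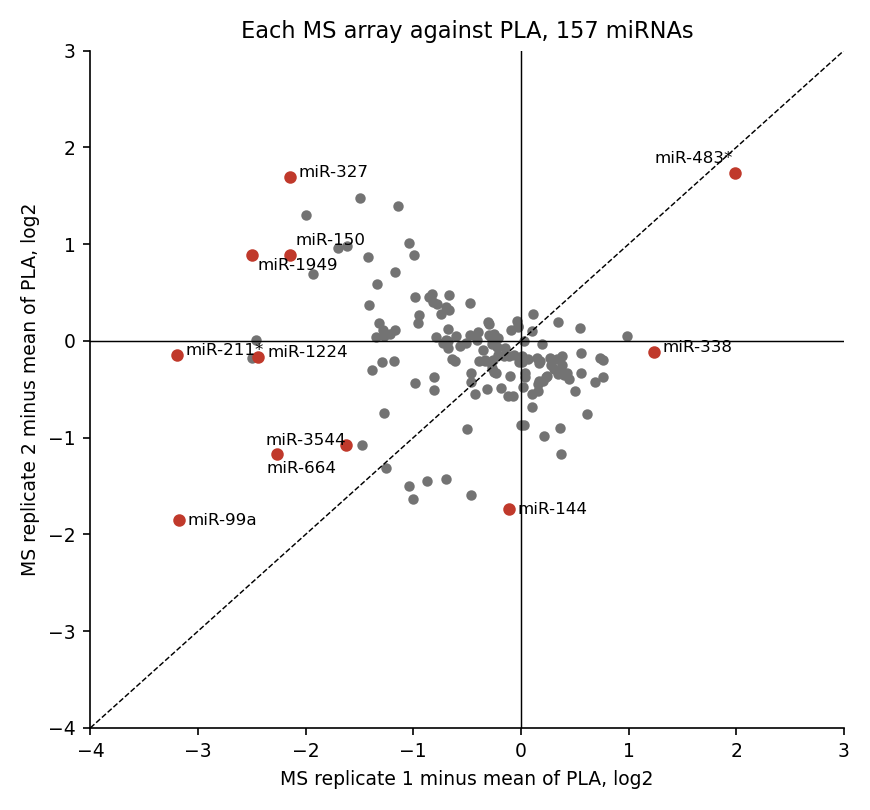
Each of 157 miRNAs by its level on MS replicate 1 (horizontal axis) and on MS replicate 2 (vertical axis), both minus the mean of the PLA arrays (log2); the dashed line marks equal differences. miR-3544, miR-664, miR-99a and miR-483* lie on the same side of 0 on both arrays, while miR-150, miR-1949 and miR-327 were lower than PLA on MS replicate 1 and higher on MS replicate 2.

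Lymphocyte miRNAs were among those that separated the MS replicates. miR-150, abundant in mature B and T cells, was at 10.26 on MS replicate 1 and 13.29 on MS replicate 2, and at 13.16 and 11.65 in PLA. Its passenger strand miR-150* followed it (3.52 and 6.14 in MS, 6.07 and 4.83 in PLA), as did miR-342-3p (8.89 and 10.81, 10.72 and 9.72) and miR-342-5p (3.52 and 5.81, 5.82 and 4.06). MS replicate 1 was thus low, PLA replicate 2 was in between, and the other 2 arrays were high. On the MTX and NOCIA arrays miR-150 lay between 12.89 and 13.42, so the 2 low arrays were 1 of MS and 1 of PLA.

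Over the 8 lymphocyte miRNAs, all detected on all 4 arrays, the summed scaled intensity was 2736 and 13470 in MS and 12450 and 5277 in PLA, against 10660 to 14830 on the 4 MTX and NOCIA arrays. The arms overlapped for all 8, none was called, and the median MS minus PLA was -0.27, beside -0.22 over all miRNAs (0.19 and 0.23 with no scaling). It turned to 0.52 without MS replicate 1 and to 0.09 without PLA replicate 1, and was -1.16 without MS replicate 2 and -0.78 without PLA replicate 2. miR-181c and miR-181d ran the other way between the MS replicates, at 8.08 and 7.19 and at 8.10 and 7.35. In bulk RNA, fewer cells of a type and less of a miRNA per cell cannot be told apart. The part of the lymphocyte miRNAs in the spread of the other miRNAs was not tested.

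Of the miRNAs detected on both MS arrays, others that were higher on MS replicate 2 by the widest margins were miR-327 (2.58 and 6.42), miR-1949 (5.96 and 9.34), which lies within the span of Matr3, and miR-3558-3p (4.45 and 7.74). Higher on MS replicate 1 were miR-144 (9.01 and 7.39), miR-497 (6.58 and 5.03), miR-32 (6.06 and 4.69), miR-338 (7.77 and 6.42) and the smooth muscle miRNA miR-143 (8.64 and 7.38). For each of these 8 the PLA arrays overlapped the MS arrays, and the adjusted p in limma's fit ran from 0.789 to 1. In the 133 matched miRNAs detected on all 4 arrays, the median G+C content was 48.9% in the 30 that were over 1 higher on MS replicate 2, 39.1% in the 7 that were over 1 higher on MS replicate 1 and 45.5% in the other 96. The ranges overlapped (33.3% to 66.7% and 30.0% to 61.9%), and across the 133 miRNAs r between the replicate difference and G+C content was -0.171.

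MS at 34 days, on another slide and in other animals, had a spread between replicates of the same kind. Its 2 arrays had miR-150 at 9.55 and 12.43 in order of replicate number, and miR-1224 at 7.81 and 9.52. Across the 132 miRNAs, replicate 1 minus replicate 2 in MS at 1 hour had an r of 0.845 with the same difference at 34 days, with no array in common. With that difference in other arms at 1 hour, r was 0.696 for MTX, -0.767 for PLA and -0.434 for NOCIA. It was 0.140 for PLA at 34 days. The pattern was thus not particular to MS, and the sign of r depends on the numbering. The replicate numbers tie no animal at 1 hour to one at 34 days. MS replicate 1 was the array with the highest summed intensity on its slide at both times (371061 and 519917), and the part of brightness in these differences was not tested.

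**Figure D4:**
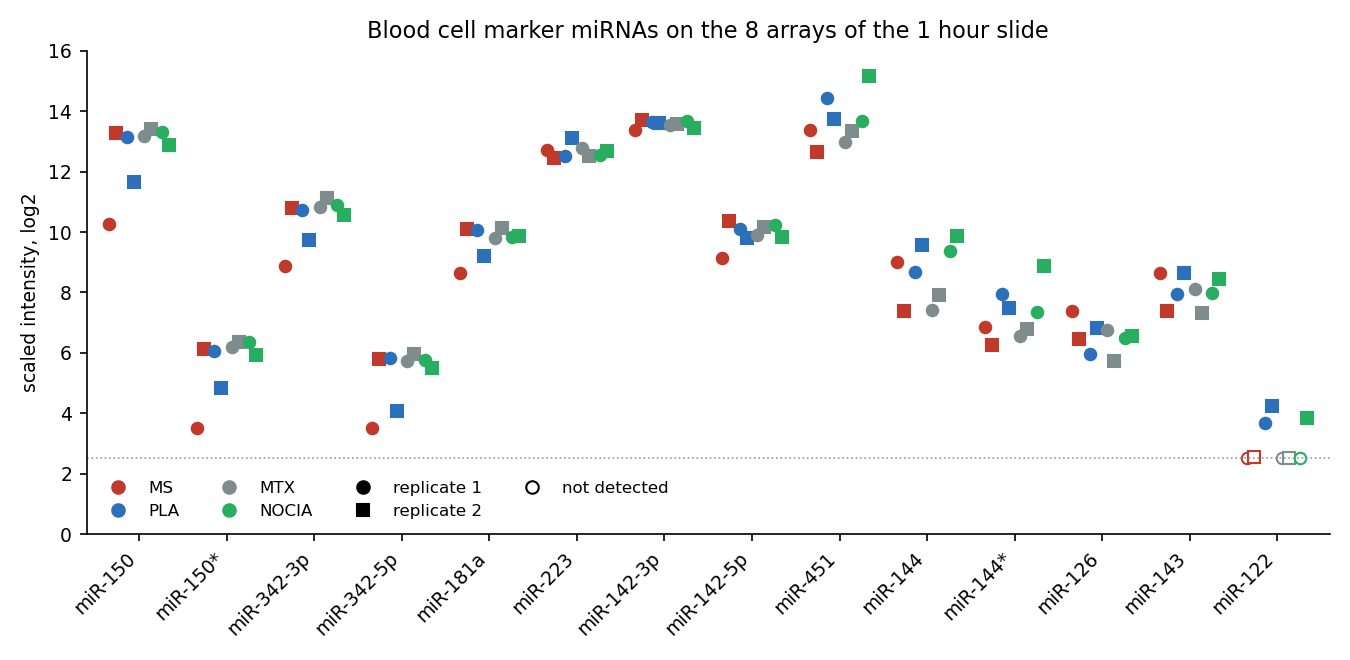
Level (log2 scaled intensity, vertical axis) of 14 marker miRNAs of lymphocytes, myeloid cells, all leukocytes, red cells, platelets and vessel wall, and liver on the 8 arrays of the 1 hour slide, circles for replicate 1 and squares for replicate 2. miR-150 and miR-342 are low on MS replicate 1 and PLA replicate 2, and miR-451 is lower on both MS arrays than on both PLA arrays.

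None of the 3 tested red cell miRNAs was called, their adjusted p running from 0.726 to 0.824 in limma's fit, and miR-144 overlapped between the arms. miR-451, the main miRNA of red cells, was at 13.39 and 12.65 in MS and 14.44 and 13.73 in PLA, a difference of -1.06 ± 0.94 (adjusted p = 0.789, limma). miR-144*, from the same transcript, had 6.85 and 6.27 against 7.96 and 7.49, and miR-144 had 9.01 and 7.39 against 8.66 and 9.59. All 3 differences were negative under each of the 5 scalings, which held for 18 of the 157 miRNAs detected on all 4 arrays. On the first scaling alone, 76.2% of all miRNAs were negative. The MTX arrays (12.97 and 13.35 for miR-451) were as low as the MS arrays and NOCIA replicate 2 (15.16) was the highest, and the 2 NOCIA arrays (13.69 and 15.16) were further apart than the MS and PLA means. Whether residual red cells in the mononuclear fraction took part was not tested.

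Myeloid miR-223 was at 12.71 and 12.45 in MS and 12.52 and 13.11 in PLA, and miR-142-3p, found in all white cells, at 13.38 and 13.69 and at 13.63 and 13.62. Both overlapped between the arms, as did miR-126 of platelets and endothelium (7.39 and 6.46, 5.98 and 6.84). miR-451, miR-223 and miR-142-3p were among the 10 brightest of the 210. The liver miRNA miR-122 was dim, at or near the floor in MS and at 3.69 and 4.26 in PLA.

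Among the inflammation miRNAs, 8 of the 11 listed were tested and none was called. miR-146b, which acts in the feedback on NF-kB signalling, was the only 1 of them with MS below PLA on every array, at 6.76 and 7.06 against 7.54 and 7.59. The difference was -0.65 ± 0.19, with an unadjusted p of 0.00432 and an adjusted p of 0.185 by limma. Its relative miR-146a was at 7.20 and 8.98 in MS and at 8.90 and 8.31 in PLA, and followed the lymphocyte miRNAs across the arrays. miR-21 was at 13.97 and 14.84 in MS and 14.62 and 14.27 in PLA. The median over the 8 was -0.31, with 7 negative, and 0.16 with no scaling, with 3 negative. It turned to 0.21 without MS replicate 1, and was -0.03 without PLA replicate 1, -0.75 without MS replicate 2 and -0.58 without PLA replicate 2.

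Of the 9 tested miRNAs linked to wound healing and epithelial-mesenchymal transition, the process the study examined, none was called, 2 were lower and 1 was higher in MS without overlap (24.3% over all miRNAs), and the median was -0.10 (0.36 with no scaling). The median was 0.03 without MS replicate 1, 0.13 without PLA replicate 1, -0.47 without MS replicate 2 and -0.25 without PLA replicate 2. Those lower were miR-99a and the epithelial miRNA miR-203 (2.84 and 2.58 against 4.07 and 3.42). The one that was higher was miR-141, detected on MS replicate 1 alone of the 4 arrays. miR-21, miR-210, which responds to low oxygen, and the 3 miR-29 miRNAs, which target collagen messages, overlapped between the arms. miR-29a, for example, was at 11.61 and 12.91 in MS and 12.84 and 12.02 in PLA. Among 9 tested miRNAs that respond to mechanical load in vessel wall and muscle, all 9 overlapped, with a median of -0.04 (0.42 with no scaling, and -0.21 to 0.10 with each array left out) and a range from -0.29 (miR-10a-5p) to 0.52 (miR-126).

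The 8 let-7 guides had a median difference of -0.17, with 3 lower without overlap (let-7b, let-7c and miR-98, each between -0.25 and -0.27; 21.4% over all miRNAs) and none called. Leaving out each array gave medians from -0.29 to -0.12. With no scaling, all 8 differences were positive. The 9 miRNAs of the miR-17-92 and miR-106b-25 clusters had a median of 0.02 (0.48 with no scaling, and -0.25 to 0.28 with each array left out), and miR-93 alone lay below PLA on both arrays (8.88 and 8.92 against 9.35 and 9.32, adjusted p = 0.468, limma). The 5 miRNAs with the seed AGCAGCA had differences from -0.40 to -0.12, and with no scaling all 5 were positive. The brightest of them, miR-16, was at 12.72 and 13.42 in MS and 13.61 and 13.22 in PLA, whereas miR-497 was higher on MS replicate 1, so that miRNAs of 1 seed stood in opposite order on the MS replicates. Over the 42 passenger strands tested the median was -0.37, beside -0.22 over all 210, with 34 of 42 negative (76.2% over all), 14 lower and 2 higher without overlap (21.4% and 2.86% over all) and 1 called, let-7b* (0.952% over all). With no scaling 22 of the 42 were negative, and in the authors' log2 values 5.

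Against the other arms of the slide, which share the MS arrays, the calls were the 2 above and miR-298. MS minus MTX gave 3 calls (1.43% of 210) and MS minus NOCIA gave 3 (1.43%), all lower in MS. miR-298 differed by -1.72 ± 0.35 from MTX (adjusted p = 0.0150, limma) and by -1.54 ± 0.35 from NOCIA (adjusted p = 0.0392). It was detected on 15 of the 24 arrays, 8 of them on the 1 hour slide. Its value was at the floor on 12 arrays, which enter the shared estimate of the spread. miR-3544 differed by -1.39 and -1.30 and let-7b* by -1.73 and -1.53, with SEs of 0.23 and 0.28. Without MS replicate 2, calls against MTX rose to 39 and those against NOCIA to 22, while without MTX replicate 2 or NOCIA replicate 1 there were none. MTX minus PLA and NOCIA minus PLA gave no calls in limma, and without adjustment 5 and 4 miRNAs had a p under 0.05.

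The change of MS minus PLA from 1 hour to 34 days was tested as 1 term, in which the slide cancels. No miRNA passed (0 of 210, 0%, limma, adjusted p of 0.184 at the lowest), and 49 had a p under 0.05 without adjustment, 47 of them with a larger value at 34 days. Without MS replicate 1 at 1 hour there were 5 calls, without PLA replicate 1 at 1 hour 2, and without MS replicate 2 at 34 days 1. miR-3544 was detected on none of the 4 arrays of MS and PLA at 34 days and let-7b* on 1, so their changes of 1.16 and 1.42 compare a 1 hour difference with values at or near the floor. miR-99a was at 3.34 and 6.07 in MS at 34 days and at 7.16 and 6.50 in PLA, lower in MS at both times, and its change was 0.39 ± 1.20 (adjusted p = 0.845). miR-483* was at the floor on both MS arrays and on 1 of the 2 PLA arrays at 34 days.

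**Figure D5:**
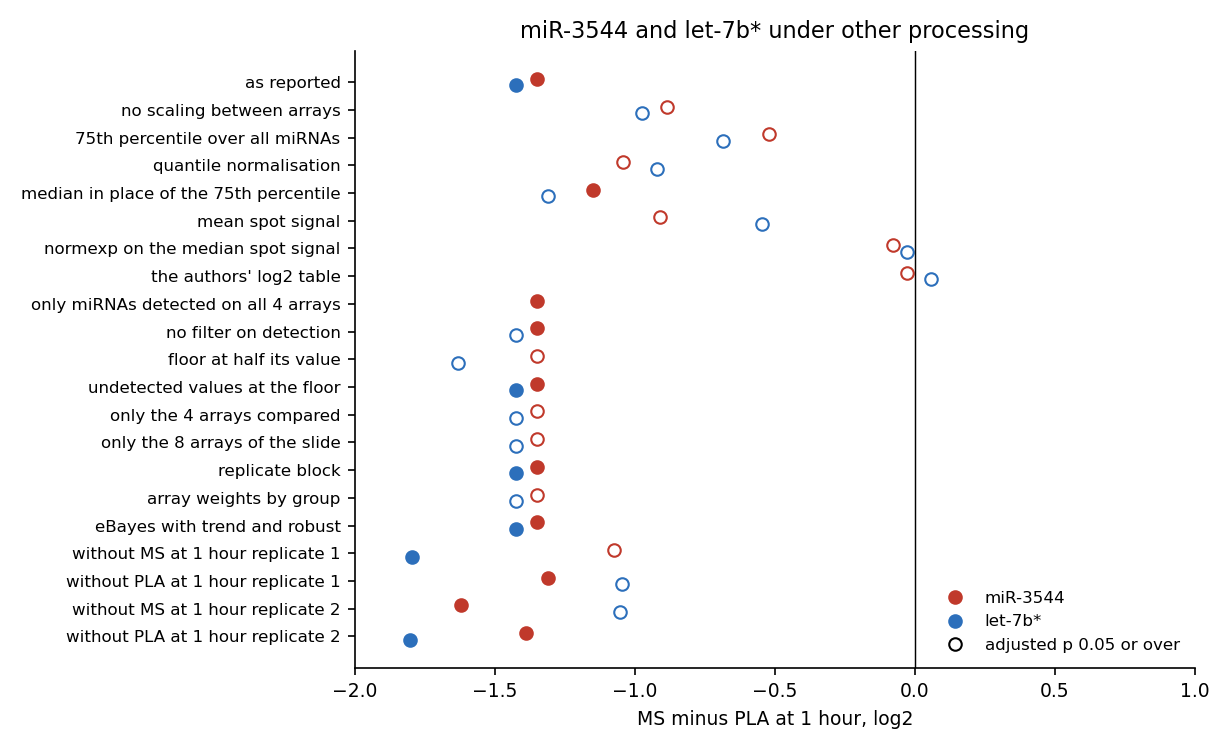
MS minus PLA at 1 hour (horizontal axis, log2) for miR-3544 (red) and let-7b* (blue) under each processing alternative and with each array left out (vertical axis); filled points have an adjusted p under 0.05. Most values lie between -1.80 and -0.52, and those from the authors' log2 table and from normexp lie near 0, from -0.08 to 0.06.

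Both calls were lost under most alternatives: miR-3544 passed in 9 of 22 and let-7b* in 5 of 21. In the authors' deposited log2 table miR-3544 differed by -0.03 and let-7b* by 0.06, and after normexp correction by -0.08 and -0.03. With the 4 arrays alone in the fit, the adjusted p was 0.663 for both. Leaving out arrays gave -1.62 to -1.07 for miR-3544, which lost its call without MS replicate 1 (adjusted p = 0.0654). It gave -1.80 to -1.05 for let-7b*, which lost its call without MS replicate 2 (0.0734) or PLA replicate 1 (0.161).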

How the data were processed

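PBMC RNA was labelled with Cy3 and hybridised to Agilent rat miRNA arrays. Per the file headers, images were read with Feature Extraction 10.7.3.1, and the deposited scanner intensity values were background-corrected but not scaled between arrays. The submitters' processing notes name Agilent Feature Extraction 10.7 and RMA. The authors also deposited a table of log2 values for these arrays, whose normalisation steps are not given in the sources used here beyond the name RMA.

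Total intensity per miRNA (20 spots, 0 spots saturated) was scaled, floored and logged as given in the report. All 12046 undetected values equalled the listed error, so they carry no level. A model of 12 group means was fitted to the 24 arrays with limma 3.58.1 in R 4.3.3 (12 residual degrees of freedom), two-sided, with Benjamini-Hochberg adjustment over 210 miRNAs. The fit was run on simulated data with independent normal noise, the same spread in every group and no floor. That setting differs from these arrays, so it does not test calls near the floor. Groups and replicate numbers come from the sample titles. The arrays lie on 3 slides of 8.

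The comparison, lists and tests were chosen with earlier results of these data known. Named miRNAs are those called, those past the study's threshold, the 8 largest differences in each direction without overlap among miRNAs detected on all 4 arrays, the 10 brightest, the 5 widest replicate differences of MS in each direction among miRNAs detected on both MS arrays, and those detected on both arrays of 1 arm and neither of the other. Lists of miRNAs came from general knowledge. A miRNA undetected on an arm was given a bound: on each of its arrays the value was raised to the dimmest detected signal or the floor where it lay below, these were averaged, and the brighter arm's mean was set over them. Array names without an arm were matched to a RefSeq arm by hand, from general knowledge of the guide arm. No probe sequence was available to check these matches. miR-155 and miR-486 were not analysed here. Alternatives were other scalings, spot summaries, floors, filters, fits and arrays left out. The number of arrays limits the precision.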

Additional observations from a re-analysis of the deposited data

How the results depend on the processing

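MS minus PLA gave 2 calls. It gave 0 with no scaling, with the 75th percentile over all miRNAs, after quantile normalisation, with the mean spot signal, with normexp on the median spot signal, in the authors' log2 table, with the floor lowered, with only the 4 arrays, with only the 8 arrays of the slide and with array weights, and 1 with the median scaling, with miRNAs detected on all 4 arrays only and with no filter. Leaving out each array gave 2 to 3, and the same pair only without PLA replicate 2. New calls, which fall outside the naming rule, were miR-760-3p (0.96, higher) without MS replicate 1, miR-138 and miR-425* (-2.09 and -1.20) without PLA replicate 1 and miR-30e* (-0.94) without MS replicate 2. In that fit miR-760-3p differed from PLA, MTX and NOCIA by the same 0.96. Of the 4 arrays, miR-425* was above the floor on PLA replicate 2 alone (3.73). The study's threshold gave 8 in MS minus PLA, 10 in MS minus MTX, 7 in MS minus NOCIA and 16 in the change to 34 days. MS minus MTX (3 calls) and MS minus NOCIA (3 calls) each gave 0 with no scaling, the 75th percentile over all miRNAs, quantile normalisation, the mean spot signal, normexp, the authors' table and the 8 arrays alone. With array weights they gave 1 and 0, and MS minus NOCIA also gave 0 with the median scaling and with the lowered floor. Arrays left out gave 0 to 39 and 0 to 22, the highest without MS replicate 2. The change to 34 days (0 calls) gave 0 to 5 with arrays left out and 0 under the other alternatives bar the study's threshold. The cause of these losses was not tested.

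In the authors' log2 values 20.5% of the 210 differences were negative, against 76.2% as reported. Among the miRNAs named for their MS minus PLA difference, 4 changed sign there, to 0.0592 (let-7b*), 0.0784 (miR-1*), 0.0884 (miR-298) and 0.0439 (miR-370), and miR-374 was -0.0124 with the mean spot signal. The median absolute difference between the MS replicates, 0.60, was 1.24 with no scaling, 0.286 with normexp and 0.0204 with no filter, where most of the 677 miRNAs are undetected.

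The replicate block, with the number as a term in the fit of all arrays, gave 2 calls for MS minus PLA, 3 for MS minus MTX, 2 for MS minus NOCIA and 0 for the change. Same-numbered MS and PLA arrays deviated in opposite ways (r = -0.767 across 132 miRNAs) and the samples share only a number. In fits of the 4 arrays, chosen after seeing the data, the replicate block gave 0 calls (6 miRNAs at an unadjusted p under 0.05), and the replicate block with crossed numbers 0 (12). Signals near the floor limit most of the differences named: miR-3544, let-7b*, miR-298 and miR-664 were below 5 on the log2 scale on all 4 arrays.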
